A study of Strongylocentrotus purpuratus with 6 samples.

Results

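Lim1, Prox and Hnf1 are homeobox genes, which encode transcription factors that bind DNA through a homeodomain. Their loci were followed here in a map of RNA polymerase II (Pol II) in 20 h hatching blastula embryos of the purple sea urchin, Strongylocentrotus purpuratus. Each locus was taken as the span from the first to the last of its cis-regulatory modules (CRMs), the genomic fragments around the gene that had been tested before in reporter constructs, plus 2 kb on each side, and its members were the Pol II peaks that overlapped this span by at least 1 bp. By this rule 185 of the 554846 peaks of the list were members, 93 at Lim1, 76 at Prox and 16 at Hnf1. The 3 genes have 45 of the 389 CRMs, 19 at Lim1, 20 at Prox and 6 at Hnf1, and 37 genes have CRMs in all.

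The series holds 3 Pol II ChIP samples and 3 input samples, each ChIP paired with the input of the same chromatin extract, from whole embryos of 20 h. Chromatin was immunoprecipitated with 8WG16, a mouse monoclonal antibody to the repeated tail of the largest Pol II subunit, and the labels name no strain, genotype or treatment. The authors combined the replicates before they called peaks, so the data are 1 list of peak positions on the scaffolds of genome version 3.1. The list has no score, signal or read count, the depth behind a peak is unknown, and no spread between samples can be computed. Whole embryos mix all territories, so a broad peak in many cells and a peak in few cells cannot be told apart, and the labelled tissue could not be checked against marker genes. The measures used are the number and length of peaks and the share of bases under them, described without tests, since CRMs and peaks of a locus are regions of 1 pooled map and not replicates.

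Pol II transcribes protein-coding genes, and in ChIP-seq it accumulates at promoters, along the bodies of transcribed genes and at active enhancers. Lim1 belongs to the LIM class, whose proteins carry LIM zinc-binding domains beside the homeodomain, and its mouse counterpart Lhx1 is required for formation of the head. Prox belongs to the prospero class, whose founding member in Drosophila directs the differentiation of neural precursors. Hnf1 belongs to the HNF class, whose vertebrate members act in liver, kidney and gut. The symbols of 2 of the 3 genes were found in the RefSeq gene table of assembly Spur_5.0, as Lim1 (gene 373522) and prox1 (gene 576148). That assembly is not the one of the peaks, so exons, introns and promoters were not looked up. The letter in each CRM name, U, I or D, was read as upstream, intron or downstream of the gene. This reading could not be checked, which matters most for the Lim1 CRMs lettered I that lie far from the upstream side.

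The 3 loci differed in how much of them lay under Pol II peaks. The Lim1 locus, on Scaffold857 from 146497 to 260091, was covered over 70.2% of its 113595 bp. The Prox locus, on Scaffold468 from 210123 to 277719, was covered over 49.6% of 67597 bp. The Hnf1 locus, on Scaffold129 from 705681 to 733495, was covered over 17.5% of 27815 bp. Lim1 thus had 1.41 times the share of Prox and 4.01 times that of Hnf1. Along the scaffold, the CRM letters ran from downstream to upstream with rising position at Lim1 and Prox and from upstream to intron at Hnf1, which has no downstream CRM in the set.

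**Figure D1:**
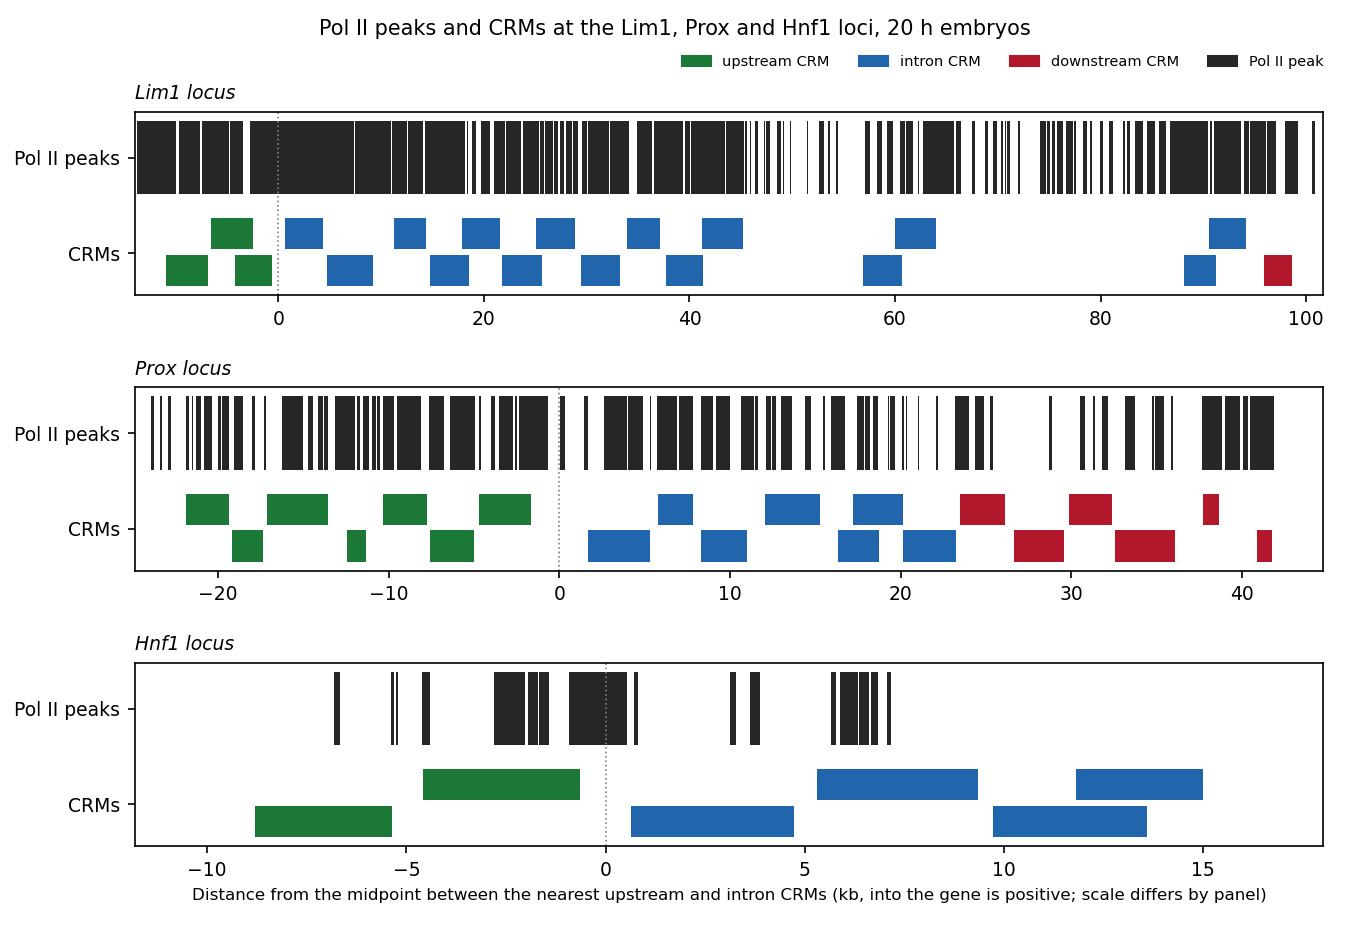
Pol II peaks (black, upper row of each panel) and CRMs (lower row, green upstream, blue intron, red downstream, staggered so that overlapping CRMs can be told apart) at the Lim1, Prox and Hnf1 loci. The x axis is the distance in kb from the midpoint between the nearest upstream and intron CRMs, positive into the gene, with its own scale in each panel; the 93 peaks at Lim1 fill 70.2% of the locus and the 16 at Hnf1 fill 17.5%.

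Set against the other genes with CRMs, Lim1 was on the high side, Prox below the middle and Hnf1 near the bottom. The share of the locus under peaks was 70.2% at Lim1, 49.6% at Prox and 17.5% at Hnf1, against a median of 58.8% over the other 34 genes (56.4 ± 17.3%, mean ± SD). In the order of all 37 loci by this share, Lim1 stood at place 11, Prox at 24 and Hnf1 at 36. Only Ecr, at 13.9%, had a lower share than Hnf1. Prox lay next to Gsc (49.9%), and that pair is not separable by this measure. Lim1 is the longest of the 37 loci.

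The 7 other homeobox genes of the set (Dlx, Gsc, IrxA, Nk1, Nk22, Not and Six12, with the zinc finger genes that also carry a homeobox left out) were spread widely as well. Their locus shares ranged from 25.1% at Six12 to 82.8% at Dlx, with a median of 58.5%, beside 49.6% for the median of Lim1, Prox and Hnf1. Hnf1 lay below all 7 of them, and Lim1 below Dlx (82.8%) and Not (74.7%).

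**Figure D2:**
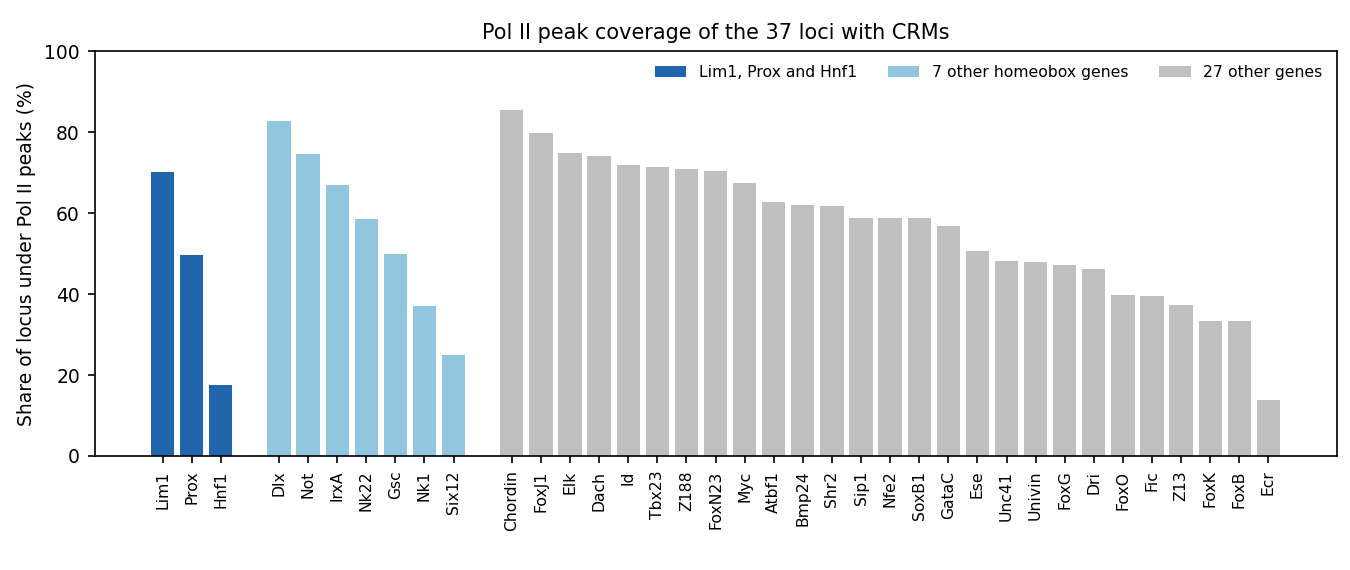
Share of each locus under Pol II peaks (y axis, %) for Lim1, Prox and Hnf1 (dark blue), 7 other homeobox genes (light blue) and 27 other genes (grey), sorted within each group. Each bar is 1 value from the pooled peak list, so there are no error bars; Hnf1 (17.5%) is above Ecr (13.9%) only.

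The density of peaks did not order the loci as the covered share did. Of the 3 genes, Prox had the densest peaks, 1.12 per kb, Lim1 had 0.819 per kb and Hnf1 0.575 per kb, against a median of 0.803 per kb over the other 34 genes. The difference between Lim1 and Prox in covered sequence therefore came with the length of the peaks. Peaks at Lim1 had a median length of 441 bp (quartiles 257 and 845 bp), those at Prox 293.5 bp (151.5 and 604.75 bp) and those at Hnf1 194.5 bp (114.25 and 270.25 bp). The median over the whole list was 217 bp (quartiles 132 and 370 bp), and over the peaks at the other 34 loci 314 bp (178 and 630 bp). By median peak length Lim1 stood at place 9 and Prox at 25, and the median peak of Hnf1 was the shortest of the 37 loci.

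Long peaks were common at Lim1. Of its 93 peaks, 21 (22.6%) were at least 1000 bp long, and so were 8 of 76 (10.5%) at Prox and 1 of 16 (6.25%) at Hnf1, beside 4.71% of all peaks in the list and 14.8% of the 1225 peaks at the loci of the other 34 genes. These 21 peaks held 65.0% of the bases in Lim1 peaks. At Prox the share of bases in such long peaks was 32.6%, at Hnf1 29.6%, and over the whole list 25.8%. This share was not computed for the other 34 loci, whose peaks were longer than those of the whole list. The mean peak length was 768 bp there and 338 bp over the whole list, beside 868 bp at Lim1, 442 bp at Prox and 304 bp at Hnf1. No peak at Prox or Hnf1 reached 2000 bp, whereas 11 at Lim1 did. At the short end, 2 peaks at Prox and 1 at Hnf1 were shorter than a 50 bp read, and none at Lim1.

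**Figure D3:**
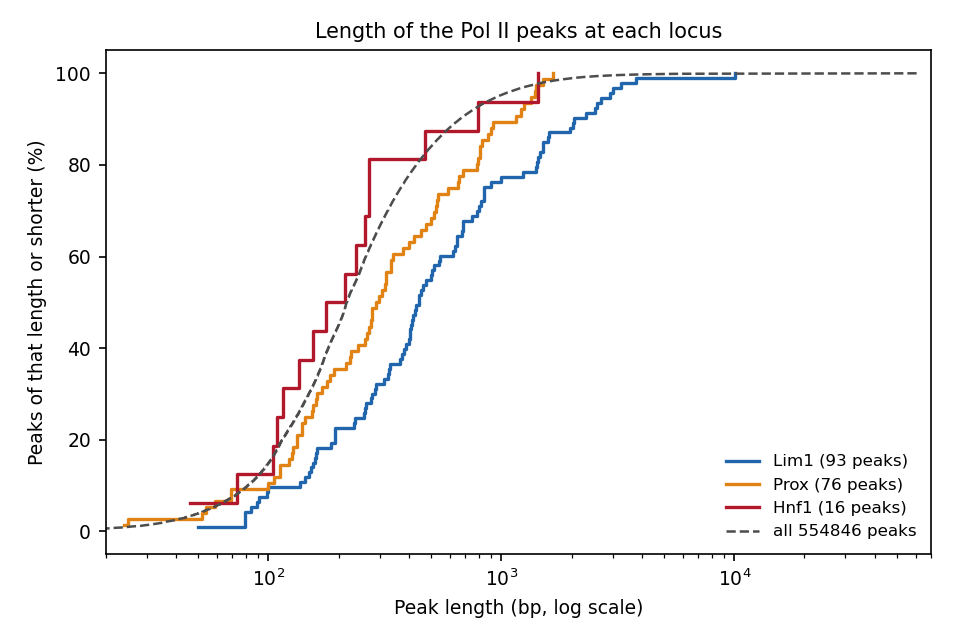
Cumulative share of peaks (y axis, %) by peak length (x axis, bp, log scale) at Lim1 (93 peaks), Prox (76 peaks), Hnf1 (16 peaks) and in the whole list of 554846 peaks (dashed). The curve of Lim1 lies to the right, with a median of 441 bp, that of Prox follows with 293.5 bp, and that of Hnf1 has a median of 194.5 bp beside 217 bp in the whole list.

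The longest peak of the Lim1 locus ran from 239828 to 249926 on Scaffold857 and measured 10099 bp. It covered the whole of Lim1_Ir_01, the intron CRM nearest to the upstream side, overlapped Lim1_Ir_02 within the gene and Lim1_Ur_01 and Lim1_Ur_02 upstream, and held 12.5% of the bases in Lim1 peaks. The second, of 3802 bp from 257077 to 260878, overlapped Lim1_Ur_03 and passed the upstream edge of the locus. The third, of 3264 bp from 203693 to 206956, joined Lim1_Ir_12 and Lim1_Ir_11.

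At Prox the 3 longest peaks were of like length and far shorter than at Lim1. They measured 1669 bp (254535 to 256203 on Scaffold468, at Prox_Ur_01), 1508 bp (258775 to 260282, at Prox_Ur_02) and 1413 bp (211974 to 213386, at Prox_Dr_06, which lay within it). At Hnf1 the longest peak measured 1439 bp (715580 to 717018 on Scaffold129), the second 790 bp (713688 to 714477), and both touched Hnf1_Ur_01, while the third of 469 bp (722368 to 722836) lay in Hnf1_Ir_02. These 3 peaks held 55.5% of all bases in Hnf1 peaks, against 21.3% for the 3 longest at Lim1 and 13.7% at Prox.

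In each of the 3 genes the longest peak reached the interval between the nearest upstream and the nearest intron CRM, where the start of the gene is to be looked for if the letters hold. Of the 32 genes with CRMs on both sides, 20 had this (62.5%), so 3 of 3 is not set apart from the rest. The 20 include Bmp24, FoxJ1, Myc, SoxB1 and Z13, whose nearest upstream and intron CRMs overlap. For these genes the bases shared by the CRMs stood in for the interval. The interval was 1273 bp long and covered over 100% at Lim1, 1262 bp and 91.8% at Hnf1, and 3306 bp and 46.1% at Prox. The other 29 genes had a median of 100%, over intervals of very unlike length, many of them far shorter. Those of at least 3302 bp were covered over 100% (Dlx, 3302 bp), 78.4% (Shr2, 4778 bp), 62.6% (Dach, 6648 bp), 92.7% (Nk22, 6805 bp) and 59.9% (Nfe2, 16721 bp). Hnf1, the least covered of the 3 loci, was thus covered over most of its short interval, by 1 peak, and Prox was not over its longer one. This measure was chosen after the values had been seen.

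All 19 CRMs of Lim1 and all 20 of Prox overlapped a Pol II peak, and 4 of the 6 of Hnf1 did, beside 98.5% of all 389 CRMs. The 2 without a peak were Hnf1_Ir_03 and Hnf1_Ir_04, of 3877 and 3200 bp, which share 1790 bp and so are not independent. Only 6 CRMs of the set had no peak, and the other 4 belonged to FoxB, Six12, Unc41 and Z13 and were upstream or downstream CRMs. Peaks covered 82.1 ± 14.7% of CRM length at Lim1 (mean ± SD over CRMs, n = 19), 58.3 ± 26.0% at Prox (n = 20) and 15.0 ± 18.1% at Hnf1 (n = 6), against 67.2 ± 28.4% over the 344 CRMs of the other genes. With overlapping CRMs merged, the means were 83.5% at Lim1, 58.4% at Prox and 18.0% at Hnf1. The values of Lim1 and Hnf1 did not overlap, from 48.0 to 100% at Lim1 and from 0 to 45.1% at Hnf1, and those of Prox, from 6.06 to 100%, overlapped both.

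A share of at least 50% of CRM length was covered in 18 of 19 CRMs of Lim1, in 12 of 20 of Prox and in 0 of 6 of Hnf1. Together this made 30 of 45 (66.7%), beside 67.9% of all CRMs. By this count the 3 genes as a group did not stand apart, and what differed was the genes within it. CRMs lying within 1 peak numbered 1 at Lim1, 2 at Prox and 0 at Hnf1. Together these were 3 of 45, a lower share than the 75 of 344 in the other genes and the 20.1% of all CRMs. Lim1 CRMs were covered to a large extent by several peaks each, 3.47 ± 1.31 per CRM (mean ± SD, n = 19), against 2.69 ± 1.63 in the other genes, and were long fragments of 3679 ± 407 bp, against 2790 ± 812 bp.

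**Figure D4:**
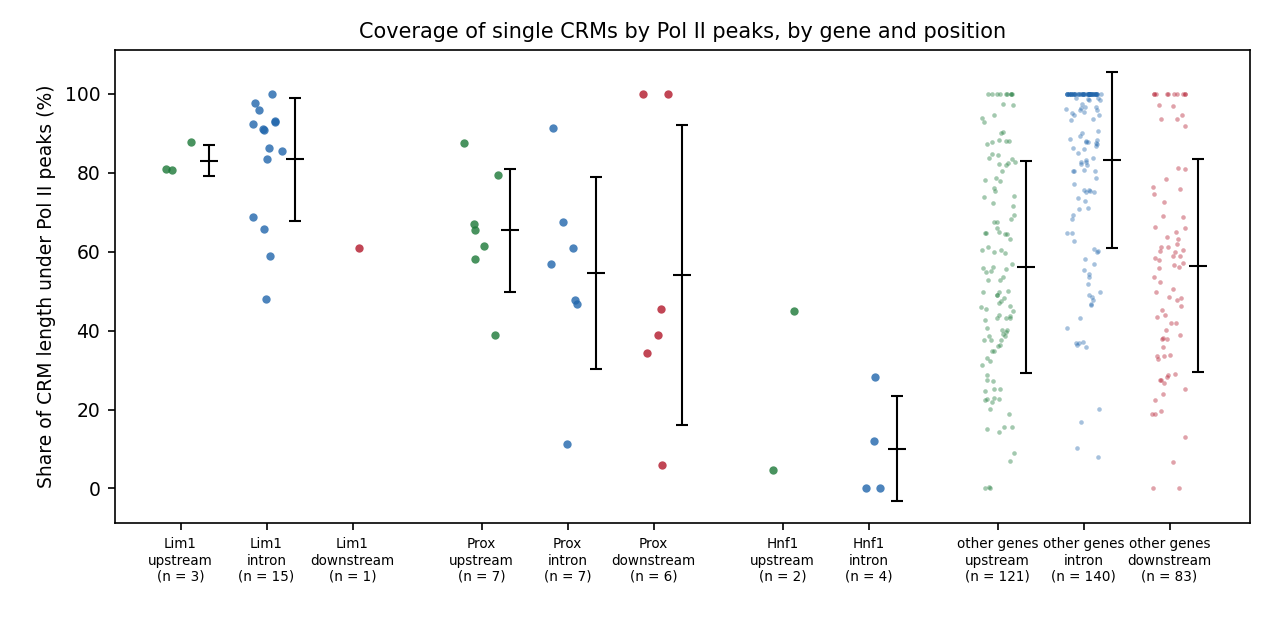
Share of CRM length under Pol II peaks (y axis, %) for each CRM of Lim1, Prox and Hnf1 and of the other 34 genes, by position (green upstream, blue intron, red downstream). Points are CRMs, and bars give the mean ± SD over CRMs where there are more than 2, which can pass 0 or 100%; Lim1 introns average 83.4%, Prox introns 54.6% and Hnf1 introns 10.1%.

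Intron and upstream CRMs both gave the order Lim1, Prox, Hnf1 on the full list. Among upstream CRMs, the order of Lim1 and Prox rests on the longest Lim1 peak. Without peaks over 6000 bp, the upstream mean was 60.4% at Lim1 and 65.4% at Prox. Intron CRMs were covered over 83.4 ± 15.6% of their length at Lim1 (SD, n = 15), 54.6 ± 24.4% at Prox (n = 7) and 10.1 ± 13.4% at Hnf1 (n = 4), against 83.2 ± 22.3% over 140 intron CRMs of the other genes. Lim1 introns were thus at the level of the other genes, and Prox and Hnf1 introns were lower by more than 1 SD of these. With overlapping CRMs merged, the intron means were 85.0% at Lim1, 54.4% at Prox and 13.4% at Hnf1. Upstream CRMs gave 83.1 ± 4.03% at Lim1 (n = 3), 65.4 ± 15.6% at Prox (n = 7), and 4.60 and 45.1% in the 2 of Hnf1, against 56.1 ± 26.8% in the other genes (n = 121). At Prox the mean of the introns (54.6%) was below that of the upstream CRMs (65.4%), by less than the SD of either, whereas in the other genes the mean of the introns was the higher of the pair. Downstream CRMs gave 61.0% in the single one of Lim1 and 54.1 ± 38.0% at Prox (n = 6), against 56.5 ± 27.1% in the other genes (n = 83).

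Along the Lim1 locus, coverage was high on the upstream side and through the adjoining part of the gene. Lim1_Ur_03, Lim1_Ur_02 and Lim1_Ur_01 were covered over 87.7, 80.6 and 81.0%, and the last pair shares 1767 bp. Lim1_Ir_01 was the most covered CRM, over 100% of its 3664 bp, and Lim1_Ir_02 next to it had 95.9%. From Lim1_Ir_04 to Lim1_Ir_12, 9 CRMs in a row further into the gene, the share stayed between 58.9% (Lim1_Ir_06) and 97.6% (Lim1_Ir_12). Lim1_Ir_13 was the least covered at 48.0% of 3826 bp, Lim1_Ir_14 had 65.8%, and the last intron CRMs had 92.3% (Lim1_Ir_16) and 86.2% (Lim1_Ir_17). The downstream CRM Lim1_Dr_01 had 61.0%.

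Within merged CRMs of Lim1 83.8% of the bases lay under peaks, and outside them 51.7%, a difference that rests on the 2 longest stretches with no CRM. The long stretch between Lim1_Ir_14 and Lim1_Ir_16 (159021 to 183134 on Scaffold857, 24114 bp) was covered over 49.0% by 30 peaks, and that between Lim1_Ir_12 and Lim1_Ir_13 (190245 to 201954, 11710 bp) over 22.0% by 13 peaks. Without these stretches, the remaining 12378 bp outside CRMs were covered over 85.1%, and of the 12 intervals between CRMs 9 were covered over more than 90% and 6 were filled. Of the 93 Lim1 peaks, 43 touched no CRM and 14 touched more than 1. The longest stretch without a peak, 2643 bp from 190056 to 192698, began inside Lim1_Ir_13. In bins of 2 kb counted from the midpoint of the interval between the nearest upstream and intron CRMs, 42 of 56 Lim1 bins were covered over at least 50%, 6 were filled and 0 were empty. From 2 kb before to 6 kb after that midpoint, 4 bins in a row were filled.

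At Prox, coverage was higher on the upstream side and in the adjoining introns than near the other end of the gene. The upstream CRMs ranged from 38.8% (Prox_Ur_06) to 87.5% (Prox_Ur_02), with Prox_Ur_03 at 79.5% and Prox_Ur_01, nearest to the gene, at 67.0%. The introns nearest to it had 61.0% (Prox_Ir_01), 91.4% (Prox_Ir_02) and 67.5% (Prox_Ir_03), and the next had 47.7% (Prox_Ir_04), 57.0% (Prox_Ir_05) and 46.7% (Prox_Ir_06). The lowest intron CRM was Prox_Ir_07, with 11.2% of its 3114 bp covered by 5 peaks that lay wholly or partly in it.

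The downstream CRMs of Prox split into low and fully covered ones. Prox_Dr_01 to Prox_Dr_04 had 45.5, 6.06, 34.2 and 38.9%, and Prox_Dr_02, with 178 of its 2935 bp under 1 peak, was the least covered CRM of the gene. Prox_Dr_05 and Prox_Dr_06, the farthest from the gene, each lay within 1 peak. They are short fragments of 982 and 888 bp, under peaks of 1214 and 1413 bp. The 2184 bp between these CRMs were covered over 80.3% by 4 peaks. The longest stretch without a peak, 3246 bp from 225201 to 228446 on Scaffold468, lay over Prox_Dr_02 and Prox_Dr_01. Within merged CRMs the Prox locus was covered over 53.9%, and outside them, the 2 kb at each edge included, over 38.2%. At Hnf1 these shares were 17.2 and 18.5%, and in 31 of the other 34 genes the CRMs had the higher share. The Hnf1 bases under peaks outside CRMs all lay between CRMs. They made up 1158 of 1262 bp from Hnf1_Ur_01 to Hnf1_Ir_01 and 132 of 786 bp from Hnf1_Ur_02 to Hnf1_Ur_01. The intervals on either side of Hnf1_Ir_02 had none. Of 32 Prox bins of 2 kb, 18 were covered over at least 50%, 0 were filled and 1 was empty. The empty bin lay 26 to 28 kb from the midpoint, over parts of the downstream CRMs Prox_Dr_02 and Prox_Dr_01.

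At Hnf1, the peaks were gathered in a few places and the far end of the locus was empty. Hnf1_Ur_01 was the most covered CRM, with 1777 of 3941 bp (45.1%) under 5 peaks, whereas Hnf1_Ur_02, farther upstream, had 159 of 3453 bp (4.60%) under 2. Of the introns, Hnf1_Ir_02 had 1140 of 4045 bp (28.2%) under 5 peaks, Hnf1_Ir_01 had 498 of 4109 bp (12.1%) under 3, and Hnf1_Ir_03 and Hnf1_Ir_04 had 0. The last peak of the locus was followed by 12278 bp without a peak, from 723657 to 735934 on Scaffold129, of which 9839 bp fell inside the locus. This was the longest such stretch at any of the 37 loci, and 0.837% of the gaps between neighbouring peaks in the whole list were as long. Whether it holds assembly gaps or sequence to which reads cannot be assigned was not tested. Of 13 bins of 2 kb, 1 was covered over at least 50% (72.1%, in the 2 kb before the midpoint) and 5 were empty.

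**Figure D5:**
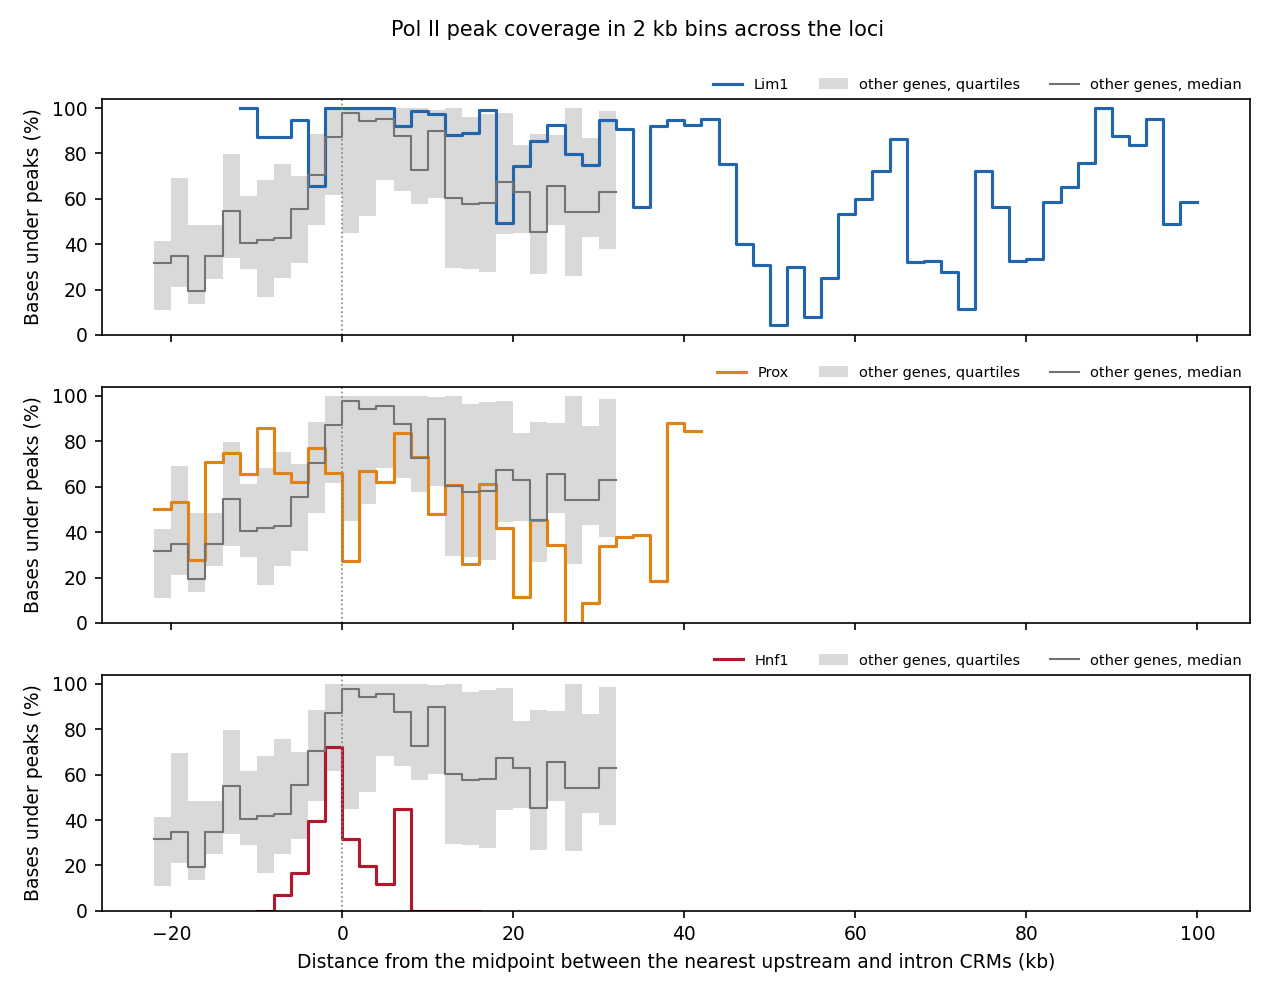
Share of bases under Pol II peaks in 2 kb bins (y axis, %) by distance from the midpoint between the nearest upstream and intron CRMs (x axis, kb, positive into the gene) at Lim1, Prox and Hnf1, with the median (grey line) and quartiles (grey band) of the other genes with CRMs on both sides, where at least 10 of them reach the bin. Lim1 fills the bins from -2 to 6 kb. In the bin from 0 to 2 kb Prox has 27.3% and Hnf1 31.6%, where the other genes have a median of 97.9%. The midpoint is not a known gene start.

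The midpoint between the nearest upstream and intron CRMs is not a known gene start. Around it, the order Lim1, Prox, Hnf1 did not hold in the bins from 4 kb on the upstream side to 2 kb on the intron side. The order held from 10 to 4 kb on the upstream side and from 2 to 8 kb on the intron side. In the 2 kb next to the midpoint on the intron side, Lim1 was covered over 100%, Prox over 27.3% and Hnf1 over 31.6%. The median of 29 other genes was 97.9% there (quartiles 44.95 and 100%). At Prox the interval around the midpoint was 3306 bp long, so most of this bin lay between the CRMs. From 10 to 8 kb upstream, Lim1 had 87.45%, Prox 85.7% and Hnf1 0%, against a median of 41.75% in 21 genes. In the 2 kb just before the midpoint, Hnf1 (72.1%) was above Prox (66.25%), and from 4 to 2 kb upstream Prox (77.0%) was above Lim1 (65.85%).

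The scaffold around the genes differed too. In the 50 kb on each side, 25.2% of bases lay under peaks at Lim1, 30.0% at Prox and 18.4% at Hnf1. The locus exceeded its flanks by 45.0 percentage points at Lim1 and by 19.7 at Prox, and at Hnf1 the difference was -0.96 points. Of the other 34 genes, 33 had a higher share in the locus than in its flanks, with a median difference of 29.7 points. The direction at Hnf1 rests on the width of the flanks: the locus had 17.5%, its flanks 11.5% with 20 kb on each side and 23.3% with 100 kb. Outside the locus, the rest of the scaffold was covered over 27.8% at Lim1, 30.2% at Prox and 17.6% at Hnf1, and over the whole list 20.7% of the sequence was covered, each scaffold being measured as far as its last peak. Scaffold468 also carries Gsc, so the value outside Prox includes that locus.

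The loci most like each gene were found from 3 measures, each scaled by its SD over the 37 genes: the covered share, the peaks per kb and the log10 length of the longest peak. Nearest to Lim1 were Z188 (distance 0.38 SD units, 71.0% covered, longest peak 8757 bp) and Elk (0.636, 74.8%, 11952 bp). Nearest to Prox were Dri (0.476, 46.3%, 2139 bp) and Shr2 (0.717, 61.8%, 2110 bp). Hnf1 had no near neighbour by comparison, its nearest being Six12, another homeobox gene (0.994, 25.1%, 2257 bp), and FoxK (1.36, 33.4%, 2150 bp).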

How the data were processed

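Pol II ChIP-seq was done on 3 ChIP and 3 input samples of 20 h embryos. According to the methods, the authors combined the replicates, mapped the single-end reads of 50 bp with Bowtie 2 on linear scaffolds of genome version 3.1, and called peaks against input with MACS at default settings; the labels list CASAVA 1.8, Bowtie 1.0.1 and MACS 1.4.2, so the sources differ on the aligner. The deposited list holds peak positions in bp and their scaffold, with no count, signal or p-value. Starts were counted from 0 in the list and are printed counted from 1.

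CRM names and positions were read from the supplementary table of the study, and its reporter values and signals were not used. CRM length is end minus start; whether these positions count from 0 or 1 is not given in the sources used here, which can shift a value by 1 bp. Overlap, covered bases and distances were computed with Python 3.11.15 and numpy 2.4.6, and figures with matplotlib 3.10.9; scipy 1.17.1 gave Wilson intervals over bases (95%), used only to sort the alternatives. On 500 simulated windows, the interval code and a count of single bases differed in 0. Named items were the 3 genes and their CRMs, the 3 longest peaks and the longest stretch without a peak of each locus, the most and the least covered CRMs, CRMs without a peak, the 2 nearest loci of each gene and the range of the 7 other homeobox genes. The members and lists were chosen with earlier results of these data known. No sequence is printed, since no genome of this build was used here.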

Additional observations from a re-analysis of the deposited data

How the results depend on the processing

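No paired analysis was possible because replicates had been merged before the peaks were called, and for the same reason no replicate could be left out. The order of the 3 loci by covered share, Lim1 above Prox above Hnf1, was the same in 6 of 6 alternatives. Of 114 alternative values, 83 stayed within the limit set for them and 31 moved. The limit was 1.5 times for a count, 1 SD over CRMs for a mean and the 95% Wilson interval over bases for a share. Most moves came by construction, since fewer peaks, other edges or a higher threshold change what is counted. The limits differ in width, so the tally does not measure stability. With peaks of at least 300 bp, the mean over Hnf1 CRMs went from 15.0 to 6.46% and that over its introns from 10.1 to 2.90%. The Prox CRMs covered over at least 50% went from 12 to 8. All of these counted as within the limit. For the covered share of the locus at Lim1, Prox and Hnf1, peaks of at least 150 bp gave 69.3, 46.9 and 15.4%, peaks of at least 300 bp 65.7, 40.3 and 9.70%, peaks less than 100 bp apart joined 71.1, 50.4 and 18.5%, and 5 kb on each side 68.6, 48.5 and 15.0%. Without the 2 kb on each side, Prox had 51.7% and Hnf1 20.4%. Without peaks over 6000 bp, Lim1 had 61.3%, and its upstream CRMs averaged 60.4%, since its longest peak drops out. This put them below the upstream CRMs of Prox (65.4%). With overlapping upstream CRMs merged, those of Lim1 averaged 87.2%. The number of peaks moved to 37 at Prox with a minimum of 300 bp, and at Hnf1 to 10 with a minimum of 150 bp, 3 with 300 bp and 10 with near peaks joined. With a share of at least 75% required, 5 Prox CRMs counted as mostly covered. With long peaks set at 2000 bp, Lim1 had 11, Prox 0 and Hnf1 0. The flanks at Lim1, Prox and Hnf1 were covered over 22.9, 31.8 and 11.5% with 20 kb on each side and 30.6, 29.2 and 23.3% with 100 kb, which turns the sign of the difference between locus and flanks at Hnf1 only. Read depth at single peaks is unknown, so each value rests on where peaks lie and how long they are.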
